A study of Saccharomyces cerevisiae with 15 samples.

Results

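The genes described here encode the 10 subunits that budding yeast, Saccharomyces cerevisiae, uses in RNA polymerase III (Pol III) and in no other polymerase. They were chosen by name, as the rows of the deposited raw count table for RPO31, RET1, RPC82, RPC53, RPC37, RPC34, RPC31, RPC17, RPC25 and RPC11. The rule used no measured value, but the list was made with earlier results of these data known. They are 10 of 7127 gene rows, and all 10 passed the filter on low counts. All 15 libraries were made from polyA RNA of strain W303 carrying ZPR1-AID, in which the zinc-finger protein Zpr1 bears a degron that an auxin derivative, 5-Ph-IAA, uses to mark the protein for destruction. The 5 groups of 3 libraries were untreated cells at 0 h, cells sampled 0.5 h, 1.5 h and 3 h after 5-Ph-IAA, and cells kept for 3 h in DMSO, the usual solvent of such compounds. The degron allele was thus present in every group, DMSO was sampled at 3 h alone, and Zpr1 protein was not measured in these data. The labels do not say whether the 3 libraries of a group came from separate cultures, so the p-values measure the spread between these libraries, which may be technical.

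Pol III transcribes tRNA genes, the 5S ribosomal RNA gene and a few other short RNAs. Its core is built around a pair of large catalytic subunits and is completed by subunits shared with Pol I or with both other polymerases. The subunits that set Pol III apart form a trimer used in initiation, a dimer used in initiation and termination, a stalk, and a small protein for RNA cleavage and termination. In budding yeast Pol III output is held back by the repressor Maf1 in poor nutrients, and the genes for Pol I, Pol III and ribosome assembly factors are known to be expressed together according to growth.

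The 10 promoters differ in short letter patterns named after genes of this kind. PAC stands for polymerase A and C, the older names of Pol I and Pol III, and its core GATGAG is bound by the repressors Dot6 and Tod6. RRPE, the ribosomal RNA processing element, is bound by Stb3. Shown first are the 3 promoters that held both PAC and RRPE (RET1, RPC82 and RPC53), then RPC25, which held the longer PAC form GCGATGAG, and then RPC17 and RPC11, which held neither. Each sequence is the 250 bases before the coding start in RefSeq's R64 assembly, read 5′ to 3′ on the gene's strand, with matches to GATGAG, GCGATGAG or GAAAAATTT on either strand in capitals. They are chrXV:733458-733707 on the minus strand for RET1, chrXVI:919042-919291 on the minus strand for RPC82, chrIV:183093-183342 on the plus strand for RPC53, chrXI:176482-176731 on the minus strand for RPC25, chrX:414771-415020 on the minus strand for RPC17 and chrIV:548311-548560 on the minus strand for RPC11.
RET1: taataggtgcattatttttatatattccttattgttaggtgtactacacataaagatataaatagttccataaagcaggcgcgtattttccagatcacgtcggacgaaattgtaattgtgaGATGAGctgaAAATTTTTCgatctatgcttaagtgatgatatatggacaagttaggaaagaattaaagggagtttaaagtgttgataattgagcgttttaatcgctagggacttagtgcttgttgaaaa
RPC82: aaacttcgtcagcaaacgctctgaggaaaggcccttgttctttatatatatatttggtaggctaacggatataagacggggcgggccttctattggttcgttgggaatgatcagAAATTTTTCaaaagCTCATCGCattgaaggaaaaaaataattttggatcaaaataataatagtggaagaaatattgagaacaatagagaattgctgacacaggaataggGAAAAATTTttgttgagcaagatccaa
RPC53: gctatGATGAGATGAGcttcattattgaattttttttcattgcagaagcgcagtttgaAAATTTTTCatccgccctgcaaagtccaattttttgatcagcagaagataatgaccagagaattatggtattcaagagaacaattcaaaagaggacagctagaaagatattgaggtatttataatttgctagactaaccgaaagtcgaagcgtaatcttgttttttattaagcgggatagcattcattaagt
RPC25: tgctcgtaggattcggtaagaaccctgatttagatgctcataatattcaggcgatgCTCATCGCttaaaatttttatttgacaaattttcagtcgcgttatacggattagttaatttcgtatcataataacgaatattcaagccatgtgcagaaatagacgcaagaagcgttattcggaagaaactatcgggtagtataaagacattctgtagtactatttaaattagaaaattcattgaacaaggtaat
RPC17: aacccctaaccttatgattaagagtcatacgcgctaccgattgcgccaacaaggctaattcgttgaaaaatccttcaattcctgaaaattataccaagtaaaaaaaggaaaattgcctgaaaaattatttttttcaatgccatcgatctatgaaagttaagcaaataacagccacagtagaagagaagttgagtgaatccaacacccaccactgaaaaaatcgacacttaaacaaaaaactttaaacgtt
RPC11: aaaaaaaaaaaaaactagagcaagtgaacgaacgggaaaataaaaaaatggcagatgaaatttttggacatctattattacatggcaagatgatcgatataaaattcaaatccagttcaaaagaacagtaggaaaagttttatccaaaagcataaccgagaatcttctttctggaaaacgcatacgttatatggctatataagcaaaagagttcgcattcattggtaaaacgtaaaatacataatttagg

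Both strands were searched from 250 bases before to 50 bases after each coding start. GATGAG was present in 8 of the 10 promoters, the exceptions being RPC17 and RPC11, while 20.4% of 6001 annotated promoters held it. It began 98 bases before the start of RPO31, 129 before RET1, 122 before RPC82, 61 before RPC34, 83 before RPC31 and 194 before RPC25. RPC53 held overlapping matches that began 245 and 240 bases before the start, and RPC37 had one 63 bases before it besides 2 that lay across or after the start. The longer form GCGATGAG, which contains the core, was present in RPC82, RPC31 and RPC25, against 3.93% of all promoters. RRPE, searched as GAAAAATTT, was present in RET1, RPC82 and RPC53, against 6.08% of all promoters, and RPC82 held it on both strands. The motif of Abf1 matched in 3 of the 10 and in 14.4% of all promoters. Hsf1 (TTCNNGAA) also matched in 3 of the 10, RPC37, RPC17 and RPC11, and in 12.9% of all promoters. Gcn4 (TGACTC) matched in RPC17 alone, against 7.98% of all promoters, and Reb1 (CGGGTAA) in none of the 10, against 7.08%. The Gcn4 match began 229 bases before the start of RPC17. The upstream gene YNCJ0018W, on the opposite strand, lies only 195 bases from RPC17. That match and the far end of the printed RPC17 stretch may therefore lie within YNCJ0018W. A match describes letters in this window and not a bound site.

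Library totals ran from 2530145 to 21282576 counts, and a single member had between 58 and 6048 counts in a library, the fewest for RPC34. Replicate 2 of the 3 h 5-Ph-IAA libraries was the shallowest and held 4.62% mitochondrial counts, against 0.0158% to 0.786% in the other 14. Results that rest on it are given with and without it where the call differs. ZPR1 mRNA cannot check the depletion, since the degron acts on the protein: it had 104, 91.0 and 177 CPM (counts scaled to library size, with TMM factors) after 3 h of 5-Ph-IAA, against 80.1, 52.7 and 151 CPM after 3 h of DMSO. In bulk samples fewer cells expressing a gene and less RNA per cell cannot be told apart.

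The summed mRNA of the 10 Pol III subunits was lower at every later time than at 0 h, in DMSO as well as in 5-Ph-IAA. It was 2070 ± 24.1 CPM in untreated cells, 1683 ± 60.3 CPM at 0.5 h, 1446 ± 97.5 CPM at 1.5 h and 1153 ± 91.2 CPM at 3 h of 5-Ph-IAA (SD, n = 3 each). After 3 h of DMSO it was 1226 ± 100.3 CPM. These sums were 81.3%, 69.9% and 55.7% of the untreated sum at 0.5, 1.5 and 3 h of 5-Ph-IAA, and 59.2% after 3 h of DMSO. A gene is called changed here when edgeR's quasi-likelihood test gave an adjusted p (Benjamini-Hochberg, over the 6069 genes tested) under 0.05.

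**Figure D1:**
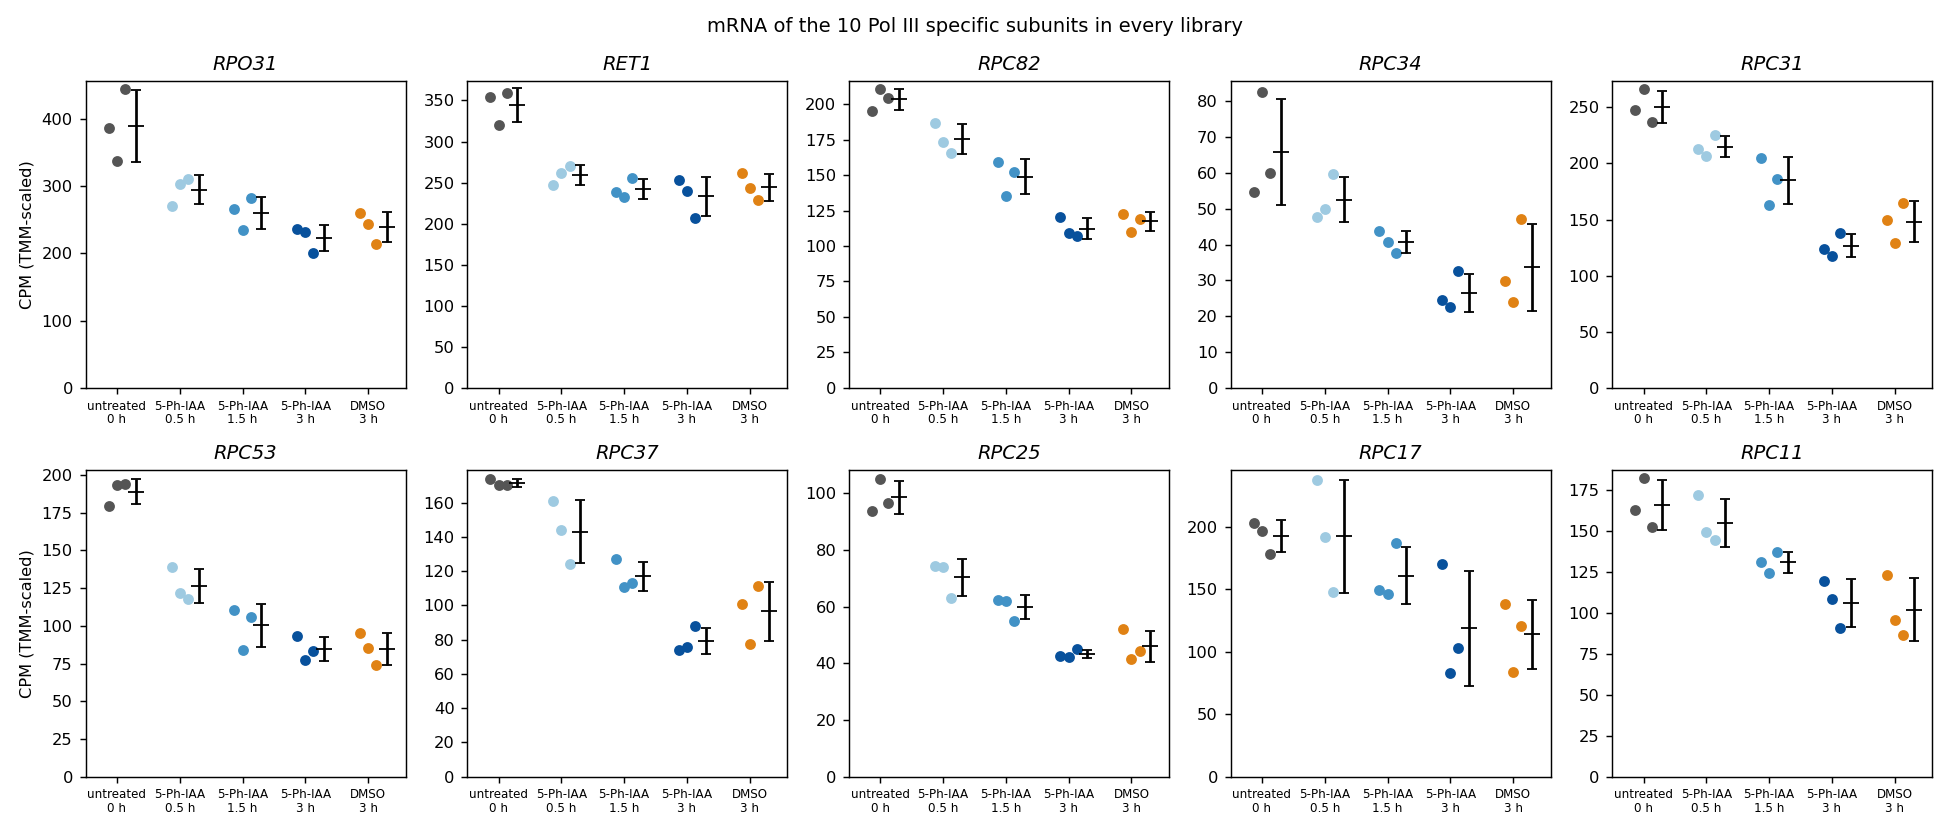
CPM after TMM scaling of each of the 10 subunit mRNAs in every library, with groups along the horizontal axis (untreated, 5-Ph-IAA at 0.5, 1.5 and 3 h, DMSO at 3 h), points for libraries, and bars for mean ± SD of 3. All 10 panels have both 3 h groups below the untreated libraries, and RPC17 and RPC34 have the widest scatter for their level.

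After 3 h of 5-Ph-IAA all 10 subunit mRNAs had fallen relative to untreated cells, where 39.3% of all tested genes were called and 19.7% were called lower. No 3 h 5-Ph-IAA library of any of the 10 reached an untreated library, and 23.8% of all genes were lower without overlap in this way. Their median log2 change was -0.92, against 0.01 over all genes tested. After 3 h of DMSO all 10 had likewise fallen relative to untreated cells, where 36.1% of all genes were called and 18.5% were called lower. The groups did not overlap for any of the 10, against 23.5% of all genes that were lower without overlap, and the median log2 change was -0.78, against 0.01 over all genes. The comparisons of 5-Ph-IAA and of DMSO with untreated cells share the untreated libraries, so their values are not independent.

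None of the 10 subunit mRNAs was called when 5-Ph-IAA was set against DMSO after 3 h, where 7.94% of all genes were. In edgeR 0 of the 10 had an unadjusted p under 0.05, DESeq2 also called 0, and the 2 groups overlapped for all 10, while 20.0% of all genes did not overlap. Their median log2 change was -0.08, against -0.02 over all genes. The 10 estimates ran from -0.31 for RPC34 to 0.07 for RPC17. The interval of the difference (95%) included 0 for each gene, and what it allowed differed between them. For RPC82 it ran from -0.28 to 0.15 and for RET1 from -0.30 to 0.15, on the log2 scale. RPC25 had an interval from -0.32 to 0.15, RPC53 from -0.26 to 0.27, RPO31 from -0.37 to 0.17 and RPC11 from -0.24 to 0.35. The widest were those of RPC17, from -0.43 to 0.57, and RPC34, from -0.78 to 0.16. RPC37, from -0.57 to 0.004, and RPC31, from -0.47 to 0.03, had the lowest upper limits, and RPC34 had the lowest estimate and lower limit.

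Same-numbered libraries of these 2 groups deviated together, and with the replicate number as a block the intervals of RPC34, RPC37 and RPC31 no longer included 0. That of RPC17 became -0.24 to 0.295, and that of RPC25, which widened, -0.355 to 0.20. RPC34 was then at -0.33 (95% interval -0.63 to -0.03), RPC37 at -0.28 (-0.55 to -0.004) and RPC31 at -0.22 (-0.43 to -0.02). Their unadjusted p-values were 0.0354, 0.0473 and 0.0364 in the edgeR fit, and their adjusted p-values were 0.164, 0.191 and 0.166, so no call was made. The share of all genes with such unadjusted p-values in this fit is not given here, so these genes cannot be set apart from others.

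**Figure D2:**
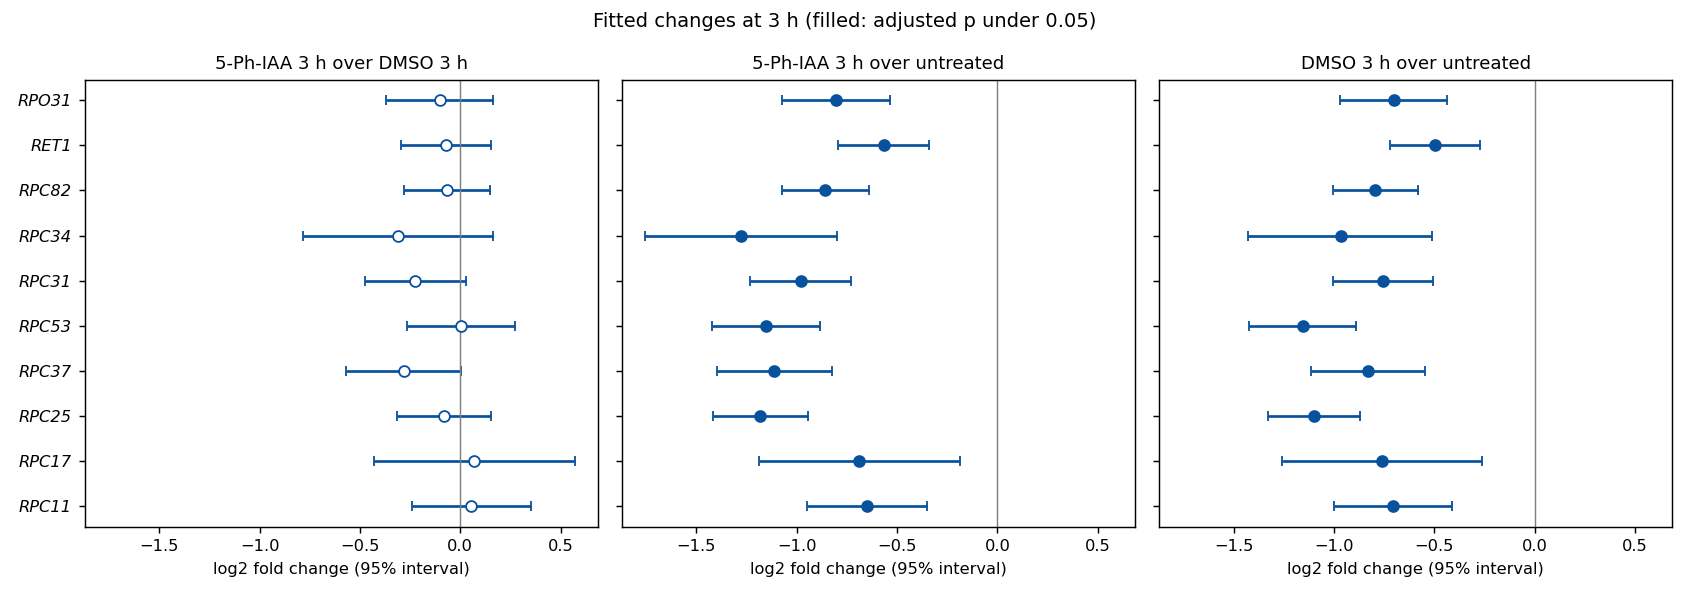
Fitted log2 fold change of each subunit mRNA with its 95% interval, for 5-Ph-IAA over DMSO at 3 h, 5-Ph-IAA at 3 h over untreated cells, and DMSO at 3 h over untreated cells; filled points had an adjusted p under 0.05. The 5-Ph-IAA over DMSO values lie between -0.31 and 0.07 with no filled point, and all 10 points of each other panel are filled and lie to the left of 0.

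No DMSO library was taken at 0.5 h or 1.5 h, so 5-Ph-IAA cannot be told apart there from time or solvent. At 0.5 h of 5-Ph-IAA 3 of the 10 subunit mRNAs had fallen relative to untreated cells, namely RPC53, RPC25 and RET1, where 6.15% of all genes were called and 2.78% were called lower. Another 4, RPO31, RPC82, RPC37 and RPC31, were below all untreated libraries without passing the test, which made 7 of 10 without overlap, against 16.6% of all genes in this direction. The median log2 change of the 10 was -0.30, against -0.03 over all genes. The count of 3 rested on single libraries, since it became 0 without replicate 3 and 1 without replicate 2 of the 0.5 h libraries, and 2 without untreated replicate 1, untreated replicate 3 or 0.5 h replicate 1.

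At 1.5 h 8 of the 10 had fallen relative to untreated cells, all but RPC17 and RPC11, where 17.6% of all genes were called and 9.74% were called lower. Of the 10, 9 were below all untreated libraries, against 22.2% of all genes, and the median log2 change was -0.53, against -0.02 over all genes. Without replicate 2 of the 1.5 h libraries the count was 5. From 0.5 h to 1.5 h the median log2 change of the 10 was -0.24, and from 1.5 h to 3 h it was -0.42, against -0.01 and -0.003 over all genes. From 0.5 h to 1.5 h edgeR and DESeq2 both called 0 of the 10, where edgeR called 1.14% of all genes. In edgeR 4 of the 10 had an unadjusted p under 0.05, and the share of all genes with such a p is not given here. At 1.5 h 6 of the 10 were below all 0.5 h libraries, against 13.2% of all genes that were lower without overlap. At 3 h RPC82, RPC37, RPC31 and RPC25, 4 of the 10, had fallen relative to 1.5 h, where 15.8% of all genes were called and 6.94% were called lower. This count of 4 became 1 without replicate 1 of the 1.5 h libraries or replicate 2 of the 3 h libraries. Without overlap, 6 of the 10 were lower, against 16.2% of all genes. Over the 4 times from 0 h to 3 h, a test of any change called 9 of the 10, where 37.1% of all genes were called, and RPC17 had an adjusted p of 0.0862 in edgeR.

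RPO31 (YOR116C, chromosome XV, 539763 to 544145, minus strand) encodes the largest subunit, which forms one side of the active-site cleft. It had 386, 337 and 444 CPM in untreated cells, 270.2, 303 and 311 CPM at 0.5 h, 265, 235 and 282 CPM at 1.5 h, and 236, 232 and 200.5 CPM at 3 h of 5-Ph-IAA. After 3 h of DMSO it had 259, 243 and 214 CPM. The lowest untreated library was above every library of the other groups, and the 2 groups at 3 h overlapped. The log2 change at 3 h was -0.80 ± 0.13 (SE, adjusted p = 0.000109 in edgeR) for 5-Ph-IAA over untreated cells and -0.70 ± 0.13 (adjusted p = 0.000444) for DMSO over untreated cells. At 0.5 h it was -0.40 with an adjusted p of 0.0748, which DESeq2 gave as 0.0253.

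RET1 (YOR207C, chromosome XV, 730008 to 733457, minus strand) encodes the second-largest subunit, the other side of the cleft. Its level was 354, 320.5 and 360 CPM in untreated cells, 247, 261 and 270.1 CPM at 0.5 h, 239, 233 and 256 CPM at 1.5 h, and 254, 239 and 206 CPM at 3 h of 5-Ph-IAA. It was 261, 244 and 229 CPM after 3 h of DMSO. All 12 libraries taken after 0 h therefore lay in a narrow band below the untreated ones. RET1 had the smallest fall of the 10 at 3 h, with a log2 change of -0.57 ± 0.11 in 5-Ph-IAA (adjusted p = 0.000519) and -0.50 ± 0.11 in DMSO (adjusted p = 0.00175), each over untreated cells by edgeR. Without 3 h 5-Ph-IAA replicate 2, RET1 was at -0.555 in 5-Ph-IAA and RPC17 had the smallest fall, at -0.47. At 0.5 h RET1 was already at -0.41 ± 0.11 (adjusted p = 0.0295), and that call was lost without any single library of the 0.5 h group or without untreated replicate 1 or 3, with adjusted p-values from 0.0685 to 0.13.

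RPC82, RPC34 and RPC31 encode the initiation trimer, which contacts the initiation factor TFIIIB at the promoter. RPC82 (YPR190C, chromosome XVI, 917077 to 919041, minus strand) had 195, 210.4 and 204 CPM in untreated cells, 186, 174 and 165 CPM at 0.5 h, 159, 135 and 152 CPM at 1.5 h, and 121, 109 and 107 CPM at 3 h of 5-Ph-IAA. DMSO libraries at 3 h had 123, 110.0 and 119 CPM. Each time stood below the one before it without overlap. The log2 change from untreated cells was -0.22 at 0.5 h (adjusted p = 0.247 in edgeR), -0.45 at 1.5 h (0.00589), and -0.86 after 3 h in 5-Ph-IAA (7.18e-06), and it was -0.79 in DMSO.

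RPC31 (YNL151C, chromosome XIV, 347766 to 348521, minus strand) had 248, 266 and 237 CPM in untreated cells, 213, 207 and 225 CPM at 0.5 h, 205, 163 and 186 CPM at 1.5 h, and 124, 118 and 138 CPM at 3 h of 5-Ph-IAA. In DMSO it had 149.9, 129 and 165 CPM. Its largest step was the last one, with a log2 change of -0.54 ± 0.12 at 3 h over 1.5 h (adjusted p = 0.00643 in edgeR). Its call at 1.5 h over untreated cells (-0.44, adjusted p = 0.0177) was lost without untreated replicate 2 (0.0684) or 1.5 h replicate 2 (0.0995) or 3 (0.0511).

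RPC34 (YNR003C, chromosome XIV, 634344 to 635297, minus strand) was the scarcest of the 10, with 54.6, 82.6 and 60.0 CPM in untreated cells and 47.8, 50.1 and 59.7 CPM at 0.5 h. At 1.5 h it had 43.7, 40.8 and 37.8 CPM. At 3 h it had 24.7, 22.5 and 32.5 CPM in 5-Ph-IAA, against 29.8, 24.0 and 47.3 CPM in DMSO. RPC34 had the largest fitted fall of the 10 in 5-Ph-IAA at 3 h over untreated cells, at -1.28 with the widest interval but one, from -1.76 to -0.80 (adjusted p = 0.000294 in edgeR). Its call at 1.5 h (-0.69, adjusted p = 0.0394) was lost without untreated replicate 2 or 3, 0.5 h replicate 1 or 2, or any of the 1.5 h libraries, and it was -0.48 (adjusted p = 0.183) without untreated replicate 2, the highest library.

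RPC53 and RPC37 encode the dimer that takes part in promoter opening and in termination, and Rpc53 is also a target of the kinases Kns1 and Mck1. RPC53 (YDL150W, chromosome IV, 183343 to 184611, plus strand) had 179, 194 and 194 CPM in untreated cells, 139, 122 and 118 CPM at 0.5 h, 110.4, 84.2 and 106 CPM at 1.5 h, and 93.4, 77.5 and 83.5 CPM at 3 h of 5-Ph-IAA. After 3 h of DMSO it had 95.2, 85.3 and 74.1 CPM, and the 2 groups at 3 h overlapped. RPC53 had the largest fall of the 10 at 0.5 h, with a log2 change of -0.58 ± 0.13 (adjusted p = 0.00986 in edgeR), a call that was lost without 0.5 h replicate 2 (0.0541) or 3 (0.0511). Its change at 3 h was -1.15 ± 0.13 in 5-Ph-IAA and -1.16 ± 0.13 in DMSO, over untreated cells.

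RPC37 (YKR025W, chromosome XI, 487770 to 488618, plus strand) had 174, 170.1 and 170.4 CPM in untreated cells, 161, 144 and 124 CPM at 0.5 h, 127, 110.8 and 113 CPM at 1.5 h, and 73.7, 75.5 and 87.9 CPM at 3 h of 5-Ph-IAA. The DMSO libraries had 101, 77.7 and 111 CPM. The log2 change was -0.26 at 0.5 h (adjusted p = 0.302 in edgeR), -0.55 at 1.5 h (0.00963) and -1.11 after 3 h (9.54e-06) in 5-Ph-IAA, and -0.83 in DMSO, all over untreated cells. The call at 1.5 h was lost without 1.5 h replicate 2, with an adjusted p of 0.05.

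RPC25 and RPC17 encode the stalk, which binds emerging RNA and helps the polymerase open promoters. RPC25 (YKL144C, chromosome XI, 175843 to 176481, minus strand) had 93.8, 105 and 96.7 CPM in untreated cells, 74.5, 73.9 and 62.9 CPM at 0.5 h, 62.3, 62.1 and 54.98 CPM at 1.5 h, and 42.6, 42.2 and 45.1 CPM at 3 h of 5-Ph-IAA. In DMSO it had 52.0, 41.5 and 44.5 CPM. The groups stood in a descending series over time, each below the one before it. The log2 change over untreated cells was -0.48 at 0.5 h (adjusted p = 0.0118 in edgeR), -0.72 at 1.5 h (0.000361) and -1.18 after 3 h in 5-Ph-IAA (9.82e-07), and it was -1.10 in DMSO. The call at 0.5 h was lost without untreated replicate 2 (0.0552) or 0.5 h replicate 3 (0.0726).

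RPC17 (YJL011C, chromosome X, 414285 to 414770, minus strand) varied widely between libraries of a group. It had 203, 197 and 178 CPM in untreated cells, 237, 192 and 147 CPM at 0.5 h, 149, 147 and 187 CPM at 1.5 h, and 171, 82.9 and 103 CPM at 3 h of 5-Ph-IAA. In DMSO it had 138, 83.5 and 120.5 CPM. The 0.5 h and 1.5 h libraries overlapped the untreated ones, while both 3 h groups lay below them. The log2 change over untreated cells was 0.00 at 0.5 h and -0.26 at 1.5 h, neither called. It was -0.69 ± 0.24 at 3 h of 5-Ph-IAA (adjusted p = 0.0298 in edgeR) and -0.76 ± 0.24 in DMSO (0.019). The first of these was lost under scaling by total counts (0.0561), without any one of the untreated libraries or without 3 h replicate 2 or 3, and was -0.47 (adjusted p = 0.14) without replicate 2, the library rich in mitochondrial counts. The DMSO call was lost without untreated replicate 1 (0.0529), untreated replicate 2 (0.053) or DMSO replicate 2 (0.0899).

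RPC11 (YDR045C, chromosome IV, 547978 to 548310, minus strand) encodes the small subunit for RNA cleavage and termination. It had 163, 182 and 152 CPM in untreated cells, 172, 149 and 144 CPM at 0.5 h, 131, 124 and 137 CPM at 1.5 h, and 119, 108 and 90.5 CPM at 3 h of 5-Ph-IAA. In DMSO it had 123, 95.5 and 86.4 CPM. The 1.5 h libraries were below all untreated ones, yet the log2 change of -0.34 did not pass (adjusted p = 0.104 in edgeR, and 0.0294 in a fit of these 2 groups alone). At 3 h the change was -0.65 ± 0.14 in 5-Ph-IAA (adjusted p = 0.00156) and -0.71 ± 0.14 in DMSO (0.000927), over untreated cells.

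The fitted change at 0.5 h can be set as a share of that at 3 h of 5-Ph-IAA, as a description whose differences between members were not tested. Of the catalytic pair, RET1 had 72.5% of its 3 h log2 change at 0.5 h and RPO31 49.8%. In the initiation trimer the shares were 25.7% for RPC34, 25.2% for RPC82 and 22.5% for RPC31. The partners within the dimer and within the stalk stood further apart, at 50.4% for RPC53 and 23.5% for RPC37, and at 40.8% for RPC25 and about 0% for RPC17. RPC11 had 14.6%. The errors at 0.5 h were large beside the changes, with a log2 change of -0.33 ± 0.22 for RPC34 and -0.40 ± 0.13 for RPO31 (SE).

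Set per length of coding sequence, the untreated mean was highest for RPC11, at 498 ± 45.6 CPM per kb (SD, n = 3). RPC17 followed at 396 ± 26.5, RPC31 at 331 ± 19.2 and RPC37 at 202 ± 2.52 CPM per kb, and each of these 4 lay above the next gene without overlap. RPC25 (154 ± 9.14) and RPC53 (149 ± 6.495) overlapped, and so did RPC82 (104 ± 3.84) with RET1 (99.9 ± 6.09), RET1 with RPO31 (88.7 ± 12.3), and RPO31 with RPC34 (68.9 ± 15.5 CPM per kb). RPC11 and RPC17 have the shortest coding sequences of the 10 (333 and 486 bases), and RPC11 stood 7.22 times above RPC34. This scale takes reads to cover each coding sequence evenly, which a count per gene cannot show. After 3 h of 5-Ph-IAA the order began with the same 4 genes, at 318 ± 43.4, 244 ± 94.4, 167 ± 13.6 and 93.1 ± 9.15 CPM per kb, and ended again with RPC34, at 27.8 ± 5.53 CPM per kb.

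Taken as a share of the summed per-length level of the 10, RET1 was higher at 3 h, with 5.84% in 5-Ph-IAA and 5.91% in DMSO against 4.79% in untreated cells, and neither 3 h group overlapped the untreated one. RPC53 was lower, with 5.77% in 5-Ph-IAA and 5.56% in DMSO against 7.13% in untreated cells. RPC25 was lower as well, with 5.89% in 5-Ph-IAA and 5.96% in DMSO against 7.38% in untreated cells, again without overlap. The other 7 shares overlapped with the untreated ones in both 3 h groups.

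**Figure D3:**
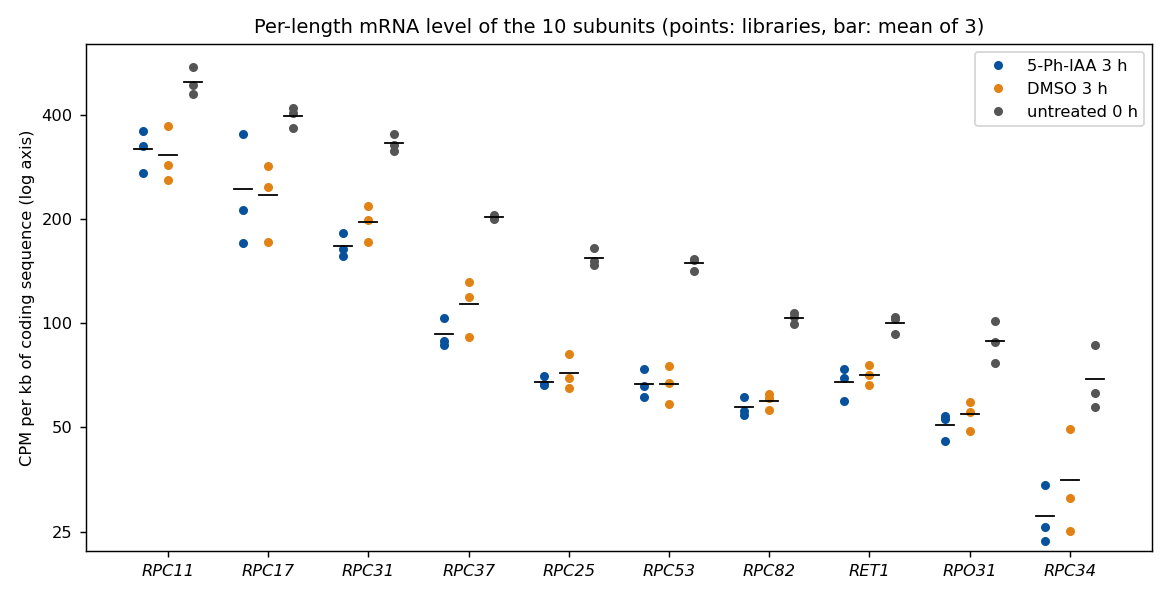
CPM per kb of coding sequence (log axis) of the 10 subunit mRNAs in 3 h 5-Ph-IAA, 3 h DMSO and untreated libraries, ordered by the untreated mean; points are libraries and bars are means of 3. The untreated means run from 498 CPM per kb for RPC11 to 68.9 for RPC34, and the 2 groups at 3 h overlap for every gene.

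Over the 45 pairs of members and the 15 libraries, Pearson's r of log2 CPM ran from 0.54 (RET1 with RPC17) to 0.965 (RPC37 with RPC31), with a median of 0.847, given as a description since the libraries share groups and scaling. Within groups, after the group means were removed, the r of a member with the mean of the other 9 ran from -0.12 for RPO31 to 0.861 for RPC82. Among 5207 other genes with a mean of at least 10 CPM, those whose log2 CPM was most like the mean of the 10 over the 15 libraries were ENP2 (r = 0.995), KRR1 (0.994), IPI1 (0.992), UTP15 (0.989), NOP12 (0.988), RRB1 (0.987), MAK5 (0.986) and MRD1 (0.986). Over untreated cells the median member had a log2 change of -0.92 (3 h of 5-Ph-IAA) and -0.78 (3 h of DMSO), against -1.46 and -1.21 for ENP2.

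The subunits that Pol III shares with other polymerases were also lower. Relative to untreated cells 7 of these 7 genes were called lower after 3 h in 5-Ph-IAA and 6 after 3 h in DMSO, with a median log2 change of -0.83 and -0.67. Over all genes 19.7% and 18.5% were called lower. RPC19, shared with Pol I, was at -1.34 (adjusted p = 5.94e-05 in edgeR) in 5-Ph-IAA and -1.23 in DMSO, and RPC10, in all 3 polymerases, at -0.90 (4.1e-06) and -0.92. RPB10, also in all 3, was the one not called in DMSO, at -0.25. At 1.5 h 6 of the 7 were called lower, against 9.74% of all genes. This count was 2 without untreated replicate 3 and 3 without untreated replicate 1 or without 1.5 h replicate 2 or 3. At 0.5 h RPC19 alone was called (-0.71, adjusted p = 0.0345), where 2.78% of all genes were called lower, and 0 of the 7 were called without any one of the 0.5 h libraries. Between 5-Ph-IAA and DMSO at 3 h edgeR called 0 of the 7, where it called 7.94% of all genes. Of the 7, 3 had an unadjusted p under 0.05 in edgeR, and DESeq2 called 2. The shares of all genes for these last counts are not given here, so the 7 cannot be set apart from others. RPB10, RPB5 and RPB8 had the lowest values, -0.43, -0.41 and -0.38.

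Pol I specific genes gave counts close to those of Pol III. All 7 were called lower at 3 h, in 5-Ph-IAA and in DMSO, against 19.7% and 18.5% of all genes. Their medians were -1.02 and -0.89. RPA43, the Pol I stalk subunit, was at -1.25 (adjusted p = 3.75e-06 in edgeR) and -1.06, and RPA190, the largest subunit, at -1.07 and -0.89. Pol II specific genes had smaller values. Of 7 genes, 3 were called lower at 3 h of 5-Ph-IAA (RPB9, RPO21 and RPB7), against 19.7% of all genes. After DMSO 1 was called lower (RPB9), against 18.5% of all genes. Their medians were -0.40 and -0.31. The count of 3 was 1 when untreated replicate 2 or 3 or any 3 h 5-Ph-IAA library was left out, and 0 when libraries were scaled by total counts. RET1 of Pol III was at -0.57 at 3 h of 5-Ph-IAA, against -0.21 (adjusted p = 0.189) for RPB2, its Pol II counterpart, a difference that was not tested.

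The promoter-binding factors of Pol III gave other counts than its subunits. Of the 10 genes for TFIIIA, TFIIIB and TFIIIC, 2 were called higher and 1 lower at 3 h of 5-Ph-IAA, and 1 was called higher in DMSO, relative to untreated cells. In these comparisons 39.3% and 36.1% of all genes were called. TFC3, for the TFIIIC subunit that contacts the B box of tRNA genes, was at 0.95 (adjusted p = 5.61e-05 in edgeR) in 5-Ph-IAA and 0.91 in DMSO. TFC8, also of TFIIIC, was at 0.59 (0.00689) in 5-Ph-IAA and 0.38 (0.0608) in DMSO. SPT15, for the TATA-binding protein that all 3 polymerases use, was at -0.65 (0.0222) in 5-Ph-IAA and at -0.28, not called, in DMSO. Its 2 groups at 3 h overlapped, with 162, 115.5 and 96.5 CPM in 5-Ph-IAA against 209.9, 155 and 118 CPM in DMSO. BRF1 and BDP1, which complete TFIIIB, were at -0.03 and -0.20 in 5-Ph-IAA and were not called there or in DMSO. The medians of the list were -0.02 in 5-Ph-IAA and 0.10 in DMSO. The DMSO count was 5 under scaling by total counts. It was 2 without replicate 1 or 3 of the 1.5 h libraries, without replicate 1 or 3 of the 3 h 5-Ph-IAA libraries, with no filter, with a mean of at least 10 CPM, or in a fit of the compared groups alone.

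**Figure D4:**
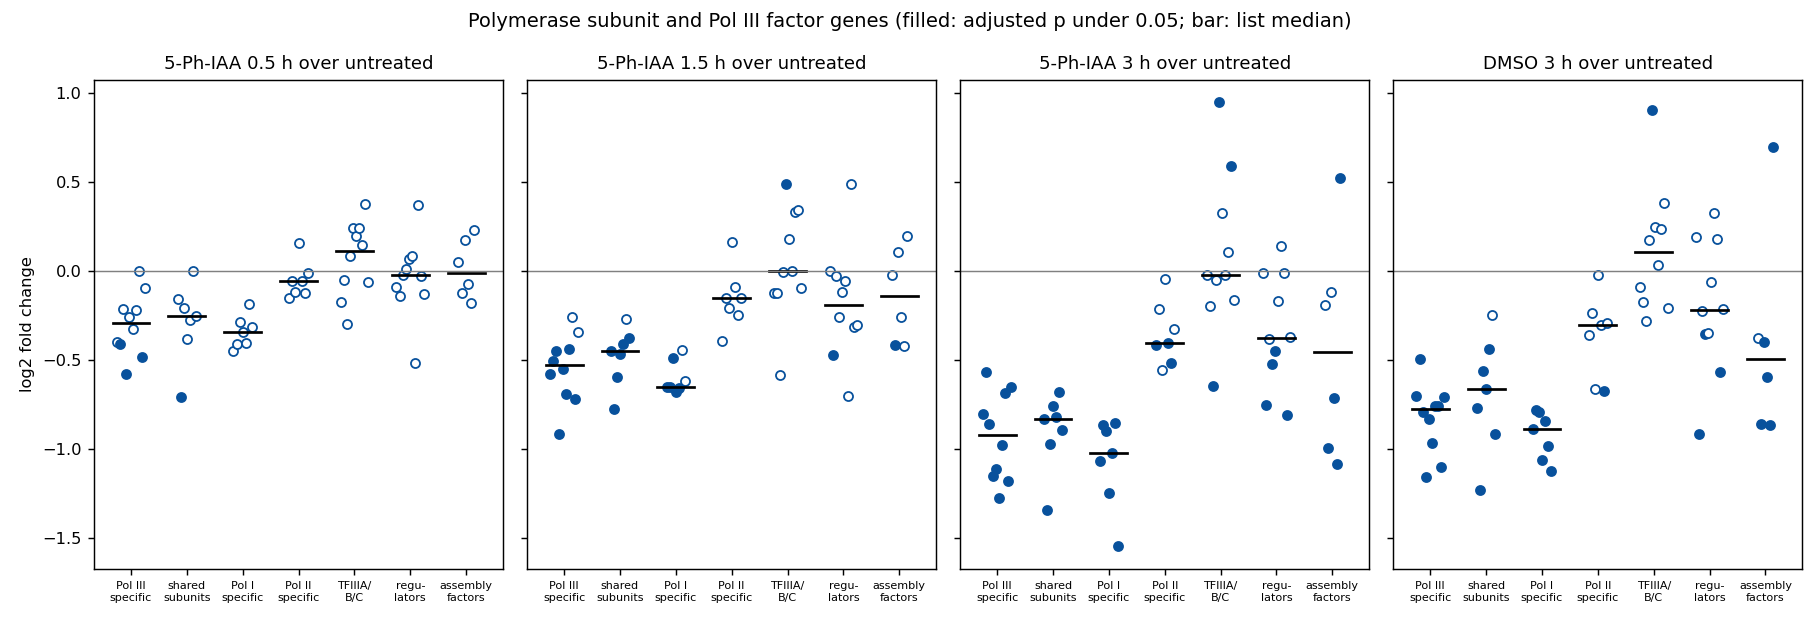
Log2 fold change over untreated cells of each gene in 7 lists (Pol III specific, shared, Pol I specific and Pol II specific subunits, TFIIIA/B/C, regulators, assembly factors), for 5-Ph-IAA at 0.5, 1.5 and 3 h and DMSO at 3 h; filled points had an adjusted p under 0.05 and bars are list medians. At 3 h the medians of the Pol III, shared and Pol I lists lie at -0.92, -0.83 and -1.02 in 5-Ph-IAA, while that of TFIIIA/B/C lies at -0.02.

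Among 10 genes for regulators of Pol III, 4 were called lower after 3 h in 5-Ph-IAA and 3 after 3 h in DMSO. The shares of all genes called lower there were 19.7% and 18.5%. SCH9, for a kinase that phosphorylates Maf1, was at -0.75 (adjusted p = 0.000217 in edgeR) and -0.92, and PPH3, for a phosphatase of Maf1, at -0.81 (3.73e-05) and -0.57. MAF1 itself was at -0.01 (adjusted p = 0.936) in 5-Ph-IAA and 0.19 (0.223) in DMSO. Of 6 genes for factors that assemble or import polymerases, 3 were called lower and 1 higher at 3 h of 5-Ph-IAA, and 4 lower and 1 higher in DMSO. In these comparisons 39.3% and 36.1% of all genes were called. BUD27 was at -0.996 (8.57e-06) and -0.86, NPA3 at -1.09 (0.000107) and -0.86, and IWR1, for a nuclear import factor of Pol II, at 0.52 (0.0241) and 0.70. RBS1, for a Pol III assembly factor, was at -0.19 and -0.38, not called. The assembly count in 5-Ph-IAA was 2, in place of 4, without untreated replicate 2 or 3 h replicate 2. That in DMSO was 3, in place of 5, under scaling by total counts. It was also 3 in fits of the compared groups alone, with and without the replicate block.

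The share of genes called lower was set against the PAC letters over all tested genes with a promoter. At 1.5 h of 5-Ph-IAA 24.2% of 1140 tested genes with GATGAG were called lower than in untreated cells, against 6.58% of 4559 without it. At 3 h these shares were 37.4% and 16.3% in 5-Ph-IAA, and 37.3% and 14.7% in DMSO. For the longer form GCGATGAG the shares were 69.7% of 234 genes with it against 18.4% of 5465 without it at 3 h of 5-Ph-IAA. After 3 h of DMSO 166 of the 234 (70.9%) were called lower, against 931 of the 5465 without it. Between 5-Ph-IAA and DMSO at 3 h, 2.14% of genes with GCGATGAG and 3.02% without it were called lower in 5-Ph-IAA. For GATGAG these last shares were 3.25% and 2.92%. These counts include the Pol III genes, and the shares were not tested against each other.

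By the R64 annotation each member has 1 exon and overlaps no other annotated gene, and 8 of the 10 share their upstream region with a gene on the opposite strand. The partners of RPC53, RPC37 and RPC25 are SAS10, DBP7 and LTV1, which act in ribosome assembly and lie 324, 397 and 299 bases away. These 3 partners were lower as well, at -1.21, -1.46 and -1.24 (log2) at 3 h of 5-Ph-IAA over untreated cells, with edgeR adjusted p-values of 2.23e-07, 8.57e-06 and 9.69e-06. In DMSO they were at -1.03, -1.40 and -0.94. Values of other partners differed. PTP2, a phosphatase gene 467 bases from RET1, was at 0.72 (adjusted p = 0.00196) in 5-Ph-IAA and 0.78 in DMSO. RPT5, a proteasome gene 883 bases from RPO31, and QCR2, a respiratory gene 339 bases from RPC82, were at 0.21 and 0.38 at 3 h of 5-Ph-IAA and were not called. SWM2, 645 bases from RPC34, was at -0.41 (adjusted p = 0.0696 in edgeR) in 5-Ph-IAA and 0.009 in DMSO, neither called. No value is given for YNCJ0018W, the partner of RPC17.

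Products of Pol III could be read only in part, since the libraries were made from polyA RNA and most such transcripts carry no polyA tail. The 299 tRNA rows, of which 76 passed the filter, summed to 295, 258 and 176 CPM at 3 h of 5-Ph-IAA and to 231, 219 and 163 CPM at 3 h of DMSO, and the groups overlapped. In edgeR 4 tRNA rows were called higher and 2 lower in 5-Ph-IAA than in DMSO, where 7.94% of all genes were called. With 3 h replicate 2 left out, 1 of 82 was called higher and 2 lower. Relative to untreated cells 2 of the 76 were called higher and 12 lower at 3 h of 5-Ph-IAA, and 1 higher and 15 lower in DMSO. Over all genes 19.7% and 18.5% were called lower in these comparisons. Near-identical tRNA genes can hold reads of each other, so single rows are uncertain. SCR1, the RNA of the signal recognition particle, had 810.1, 14390 and 40.4 CPM at 3 h of 5-Ph-IAA, against 279, 70.0 and 103 CPM at 3 h of DMSO. Its log2 change of 5.07 (adjusted p = 0.0454) came to 1.49 (0.477) without 3 h replicate 2, the library with the high mitochondrial share. RPR1, the RNA of RNase P, was at 3.10 (0.0864), and at -0.20 (0.916) without that library.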

How the data were processed

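The authors deposited raw counts of reads in genes, with a column for each library. The submitters' processing notes name FastQC 0.11.5, STAR 2.7.0, DESeq2 1.34.0 and build R64. The counting tool, its use of strand, its handling of multiply matched reads and its annotation are not stated in the labels. Every column was matched to a library by name.

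Of 6798 genes with a count, 6069 passed filterByExpr. They were tested in edgeR 4.0.16 (R 4.3.3) by quasi-likelihood, with TMM factors, a mean for each group fitted over the 15 libraries together, and Benjamini-Hochberg adjusted p-values at 0.05. The biological coefficient of variation was 17%. CPM carry the TMM factors, and log2 CPM a prior count of 1. Intervals (95%) use the SE and degrees of freedom of the fit. The alternatives were RLE or total-count scaling, dropping the filter, keeping genes averaging 10 CPM or more, robust estimation, fitting only the compared groups, a replicate block, DESeq2 1.42.0 and leaving out each library.

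Same-numbered 3 h libraries of 5-Ph-IAA and DMSO correlated after removal of group means (r = 0.196 to 0.586, every library best with its own number), so these numbers were taken as pairs; no other comparison met the rule.

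Coordinates, promoters and neighbours come from RefSeq's R64 annotation, in which 6047 rows were found under their locus tag and 125 under a symbol or synonym. Members, gene lists and motifs were chosen with earlier results of these data known. All 10 members are described; each other list contributes up to 3 called genes, by adjusted p, and up to 2 others, plus the 8 genes most like the members' mean. Neighbours, SCR1, RPR1 and further list genes were named after their values were seen.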

Additional observations from a re-analysis of the deposited data

How the results depend on the processing

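No member reversed its direction of change in any alternative where it was called: of 1680 member results, 1630 kept their side of the threshold, 43 lost a call and 7 gained one. Leaving out each library in turn gave 0 to 3 subunit genes called at 0.5 h over untreated cells, 5 to 8 at 1.5 h, 9 to 10 at 3 h and 9 to 10 in DMSO, 1 to 5 at 3 h over 1.5 h, and 0 in every case for 5-Ph-IAA over DMSO and for 1.5 h over 0.5 h. With the replicate block and only the compared groups, 3 h over 1.5 h gave 0 subunit genes, in place of 4, and the pairing changed no other subunit count by over 1.5 times; the numbers do not pair the samples there, and the cause was not tested. In that fit RET1 in DMSO over untreated cells had an adjusted p of 0.0585.

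Counts over all genes moved more. With only the compared groups they were 151 in place of 482 (5-Ph-IAA over DMSO), 568 in place of 373 (0.5 h), 222 in place of 69 (1.5 h over 0.5 h) and 631 in place of 961 (3 h over 1.5 h). With the replicate block and only the compared groups they were 748, 134 and 156 for the last 3 of these, and 1460 in place of 2193 in DMSO over untreated cells. Leaving out 1 library gave 272 without DMSO replicate 1 (5-Ph-IAA over DMSO), 178 to 238 without untreated replicate 1 or 3 or any one 0.5 h library (0.5 h), and 582, 645 and 577 in place of 1068 without untreated replicate 3 or 1.5 h replicate 1 or 2 (1.5 h). It gave 23 to 42 without any one library of either group (1.5 h over 0.5 h), and 523 to 626 without any one 1.5 h library or 3 h replicate 2 (3 h over 1.5 h), so the shares of all genes called there rest on single libraries too. For 1.5 h over 0.5 h DESeq2 gave 165 and total-count scaling 115. Over untreated cells, total-count scaling shifted the median of all genes to 0.15 (5-Ph-IAA, 3 h) and 0.21 (DMSO), where the members' medians were -0.78 and -0.58, and it made 64.8% and 74.2% of called genes higher, in place of 49.9% and 48.7%.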
